A study of Rattus norvegicus with 12 samples.

Results

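Neutrophil genes and the genes of the Cxcl1-Cxcr2 axis were examined in the colon of 12 male Wistar rats. The list holds 10 genes, namely the chemokines Cxcl1 and Cxcl2, the receptors Cxcr1, Cxcr2, Csf3r and Fpr1, and the neutrophil products S100a8, S100a9, Mpo and Mmp8. All non-control probes that the array files name by one of these symbols were taken, which gave 8 probes, 1 each for 8 of the 10 genes, of 30367 on the array. Cxcr1 and Cxcr2 carry the older names Il8ra and Il8rb in the files and were found by their RefSeq accessions. They are given beside the 8, and 10 probes were described in all. The list was chosen by earlier results of these same arrays, the signals of Groups C, M and D compared here, so the members' values are a description and no p-value is given for them.

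Group C (rats C1 to C4) was healthy and normally handled, and received placebo (saline) by gavage. Group M (M5 to M8) underwent neonatal maternal separation (NMS), that is, pups spent 180 min of each day away from the dam, starting on postnatal day 2 and ending on day 14, and received placebo. Group D (D9 to D12) underwent NMS and received VSL#3, a mixture of probiotic bacteria, by gavage every day. Placebo and VSL#3 were given from day 3 to day 60, when the colon was taken, and all rats weighed 200 to 250 g. All 12 rats underwent colorectal distension (CRD) by an inflated balloon, so the arrays hold no colon without distension. Each rat is a biological replicate with an array of its own, labelled with Cy3. Means and differences are those of 11 arrays (C1 to C4, M5 to M8 and D9 to D11) unless D12 is named, since the published analysis left 1 array out, and the value of D12 is given beside them.

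Neutrophils are short-lived white blood cells that leave the blood for tissue within hours of an injury or infection. Cxcl1 and Cxcl2 are chemokines with the ELR motif, made by epithelium, macrophages, mast cells and endothelium under the control of NF-kB, and they draw neutrophils through the receptor Cxcr2. The neutrophil carries S100a8 and S100a9 in its cytoplasm as the complex calprotectin, which is measured in stool as a marker of colonic inflammation. It makes the enzymes of its primary granules, such as Mpo, early in the bone marrow, and those of later granules, such as Mmp8, at later stages.

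Because Cxcl1 and Cxcl2 are neighbours on chromosome 14 and varied together between the rats, the sequence before each gene's start is shown. The RefSeq windows of the members (GRCr8, 250 bases before to 50 after the start) were searched on both strands for an NF-kB motif (GGG, any 2 bases, then TTTCC), and the 250 bases before the start are printed 5′ to 3′ with the matches in capitals. The stretch of Cxcl1 lies at chr14:17479322-17479571 and that of Cxcl2 at chr14:17467256-17467505, both on the minus strand.
Cxcl1: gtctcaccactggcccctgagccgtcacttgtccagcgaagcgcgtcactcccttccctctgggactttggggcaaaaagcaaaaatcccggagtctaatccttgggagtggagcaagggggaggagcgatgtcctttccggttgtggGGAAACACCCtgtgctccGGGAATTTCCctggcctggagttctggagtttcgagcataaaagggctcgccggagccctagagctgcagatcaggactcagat
Cxcl2: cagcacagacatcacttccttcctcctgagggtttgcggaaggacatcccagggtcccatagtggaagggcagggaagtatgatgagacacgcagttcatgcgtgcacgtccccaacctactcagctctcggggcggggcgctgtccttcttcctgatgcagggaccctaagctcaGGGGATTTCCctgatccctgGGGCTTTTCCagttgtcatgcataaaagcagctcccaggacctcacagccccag
Each stretch held 2 matches. In Cxcl1 the match nearer the start, GGGAATTTCC, ran from 84 to 75 bases before the start, and the other, from 102 to 93 bases, read on the opposite strand. In Cxcl2 the matches ran from 74 to 65 bases and from 54 to 45 bases before the start. Of 33469 promoter windows of the rat, 512 (1.53%) held the letters at all and 8 (0.0239%) held 2 or more matches. Of the 10 members, 9 had a window, and the letters were found in those of Cxcl1 and Cxcl2 and in none of the other 7. Cxcl6, another ELR chemokine, had 1 match, from 88 to 79 bases before its start. The letters AGGAAGT, which hold the core bound by the myeloid factor PU.1, were found in the windows of Cxcl2, Mpo and Mmp8 and in 8.41% of all windows. A match is a description of the letters and does not show that a factor binds there.

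The probes of S100a8, S100a9, Mpo and Cxcr1 are shown because these genes gave the contrasting patterns described next. They are given 5′ to 3′ as they stand on the array, in lower case with no base marked, with positions in the rn4 build of the files.
S100a8, chr2:182962328-182962387, plus strand: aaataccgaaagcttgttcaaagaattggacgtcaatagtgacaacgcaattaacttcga
S100a9, chr2:182987647-182987706, minus strand: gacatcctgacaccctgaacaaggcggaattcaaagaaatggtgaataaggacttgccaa
Mpo, chr10:76094059-76094118, plus strand: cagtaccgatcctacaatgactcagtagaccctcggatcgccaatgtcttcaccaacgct
Cxcr1, chr9:73510547-73510606, minus strand: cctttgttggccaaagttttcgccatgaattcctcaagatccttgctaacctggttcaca
The other probes lie at chr14:18690468-18690527 (Cxcl1), chr14:18677165-18677224 (Cxcl2), chr9:73477254-73477313 (Cxcr2), chr5:145393491-145393550 (Csf3r), chr8:4410891-4410950 (Mmp8) and chr1:56587441-56587500 (Fpr1). The probe of Cxcl1 was printed in 10 spots per array and the others in 2.

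Signals are given as log2 values relative to the 75th percentile of the array, so 0 is the 75th percentile itself. Such a value holds for 1 probe across rats and does not rank different probes. The 75th percentile ranged from 1434 to 1949.7 intensity units, 75.5% to 77.5% of an array's spots were well above background, and none (0 spots) was saturated. Groups C and M were on 1 slide, each in its own array row, and all of Group D was on another slide in a second scan. Slide and group therefore cannot be told apart in comparisons with Group D, nor array row and group in Group M vs Group C. All 11 markers of colonic epithelium were detected in every rat of 1 group or more. The number of rats, 3 or 4 per group, limits the precision. Of the 10 members, 5 lay well above background on all 12 arrays, and 3 (Cxcr2, Csf3r and Mmp8) on no array of Group C.

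Among the members well above background in every rat, the chemokines Cxcl1 and Cxcl2 had the largest differences between Group M and Group C. The log2 signal of Cxcl1 was -4.67, -3.23, -5.41 and -4.88 in C1 to C4, and -2.72, -3.62, 0.58 and -1.76 in M5 to M8. In Group D it was -4.65, -4.36 and -4.33 in D9 to D11, and -0.54 in D12. M7 was the highest rat and D12 the next, M6 was the lowest of Group M and lay below C2, and D9 to D11 lay within the range of Group C. The mean of Group M was above that of Group C by 2.67 ± 0.79 (SE) on the log2 scale, a 6.35-fold ratio, and 3 of its 4 rats lay above every rat of Group C. Group D was below Group M by 5.91-fold, a log2 difference of -2.56 ± 0.85, and the groups did not overlap. With D12 in the fit that difference was -1.59 ± 1.04, and the groups overlapped.

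Cxcl2 was likewise highest in M7 and then D12. Its log2 signal was -6.24, -3.38, -6.06 and -5.57 in C1 to C4, -3.31, -4.46, 0.44 and -2.33 in M5 to M8, and -5.53, -5.93 and -5.86 in D9 to D11. D12 had -0.85, which is 30.3-fold over the mean of the other rats of Group D, against 15-fold for Cxcl1. The difference between Group M and Group C was 2.90 ± 0.96, or 7.46-fold, and that between Group D and Group M was -3.36 ± 1.03, or 10.3-fold lower. With D12 the latter fell to -2.13 ± 1.29. Between Group D and Group C the difference was 0.10 ± 0.85 for Cxcl1 and -0.46 ± 1.03 for Cxcl2 without D12, and 1.08 and 0.77 with it. In bulk tissue, more cells of a type and more RNA per cell cannot be told apart.

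**Figure D1:**
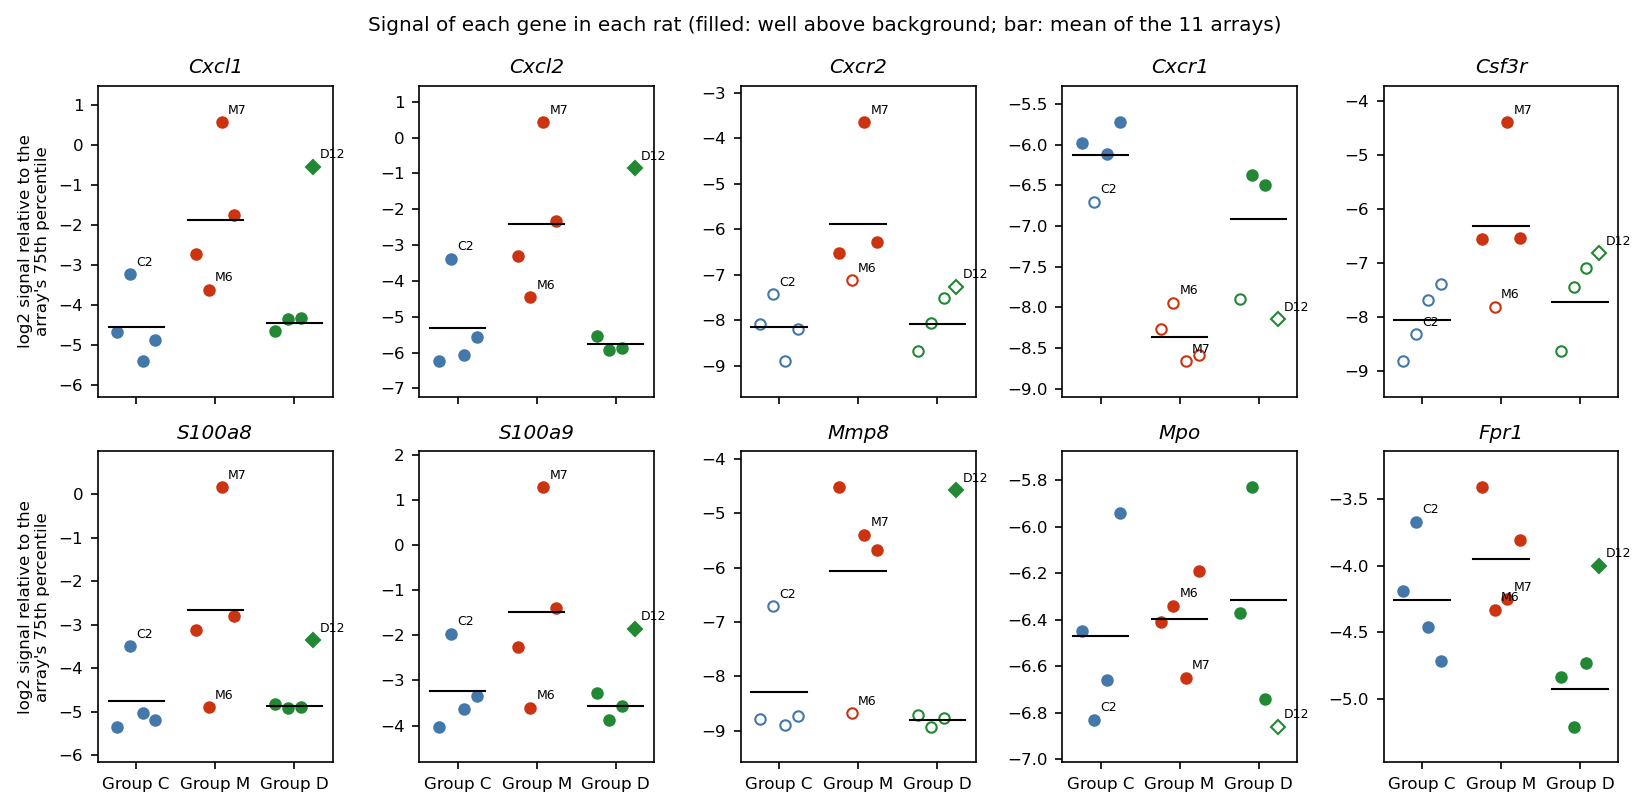
Log2 signal of the 10 members in each rat, relative to the 75th percentile of the array, by group. Filled points were well above background and open points were not, the diamond is rat D12, the bar is the mean without D12, and C2, M6, M7 and D12 are named: M7 is the highest of the 12 rats for 6 members, and the axis of each panel has its own range.

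Cxcr2, the receptor of both chemokines, was seen above background only in Group M. Its log2 signal was -6.53, -7.12, -3.64 and -6.28 in M5 to M8, of which all but M6 lay well above background, and it ranged from -8.90 to -7.42 in Group C and from -8.68 to -7.26 in Group D with D12. Every rat of Group M lay above every rat of Group C and of Group D, and M7 stood apart from the other rats of its group by 3.00. The difference between Group M and Group C was 2.26 ± 0.67, and as Group C gave only a bound, its excess in Group M was at least 3.47-fold. It was at least 3.21-fold lower in Group D than in Group M, with a difference of -2.19 ± 0.72. With D12 that difference was -1.98 and the groups still did not overlap.

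Cxcr1, the other receptor of this family, went the opposite way. Its log2 signal was -5.98, -6.70, -6.12 and -5.72 in C1 to C4, -8.26, -7.94, -8.66 and -8.58 in M5 to M8, and -7.89, -6.37, -6.49 and -8.14 in D9 to D12. It was well above background in 3 of 4 rats of Group C, in 0 of 4 of Group M and in D10 and D11 alone of Group D. Every rat of Group M lay below every rat of Group C, by a difference of -2.23 ± 0.34, and Cxcr1 was at least 2.98-fold lower in Group M. Group D was higher than Group M by 1.44 ± 0.37, at least 1.73-fold, and with D12 the groups overlapped. All of these signals were close to background, and with a normexp background correction the difference between Group M and Group C was -0.38.

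Csf3r, the receptor of the growth factor G-CSF that drives neutrophil production, was well above background in M5, M7 and M8 and in no other rat. Its log2 signal there was -6.55, -4.38 and -6.53, against -7.81 in M6, -8.82 to -7.38 in Group C and -8.63 to -6.81 in Group D with D12. Group M was above Group C by 1.74 ± 0.66, at least 2.48-fold, and Group D was below Group M by at least 2.02-fold, with a difference of -1.41 ± 0.71. Fpr1, a receptor for formylated peptides of bacteria, differed less. It ranged from -4.72 to -3.67 in Group C, from -4.33 to -3.41 in Group M and from -5.21 to -4.73 in D9 to D11, with -4.00 in D12. The rats D9 to D11 lay below every rat of both other groups, with log2 differences of -0.67 ± 0.28 from Group C and -0.97 ± 0.28 from Group M, and with D12 Group D overlapped both.

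Of the neutrophil products, the calprotectin genes varied most within Group M. S100a8 had a log2 signal of -5.34, -3.49, -5.04 and -5.18 in C1 to C4, -3.13, -4.89, 0.16 and -2.79 in M5 to M8, and -4.83, -4.92, -4.88 and -3.36 in D9 to D12. S100a9 had -4.02, -1.96, -3.63 and -3.34 in C1 to C4, -2.25, -3.60, 1.28 and -1.40 in M5 to M8, and -3.27, -3.88, -3.56 and -1.85 in D9 to D12. For both genes M7 was the highest rat, M6 lay within the range of Group C, and C2 and D12 were the highest of their groups. M7 was 30.3-fold above the mean of Group C for S100a8 and 22.9-fold for S100a9. S100a8 was higher in Group M than in Group C by 2.10 ± 0.87 and S100a9 by 1.74 ± 0.87, and without M7 these differences were 1.16 and 0.82. Group D was below Group M by 2.21 ± 0.94 for S100a8 and by 2.08 ± 0.94 for S100a9. Without M7 those differences were -1.27 and -1.15, and with D12 in the fit they were -1.83 and -1.65. The SD of S100a9 in Group M was 2.06, against a median SD of 0.21 over 20305 probes detected and valued on all arrays.

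Mmp8, a collagenase of the later granules, was highest in M5 and D12. Its log2 signal was -4.52, -8.67, -5.39 and -5.67 in M5 to M8 and -4.57 in D12, and M5, M7, M8 and D12 were the rats in which it was well above background. C2 had -6.71, and the other rats of Groups C and D lay between -8.92 and -8.70. Mmp8 was higher in Group M than in Group C by 2.21 ± 0.81, at least 2.73-fold, and lower in Group D than in Group M by 2.73 ± 0.87, at least 3.74-fold. In D9 to D11 it was not well above background, and with D12 in the fit the latter difference was -1.68. Mpo, the peroxidase of the primary granules, did not share this pattern. Its signal ranged from -6.83 to -5.94 in Group C, from -6.65 to -6.19 in Group M and from -6.74 to -5.83 in D9 to D11. It was -6.86 in D12, the only rat in which it was not well above background. The differences of Mpo were 0.08 ± 0.23, 0.09 ± 0.25 and 0.16 ± 0.25 in Group M vs Group C, Group D vs Group M and Group D vs Group C, and M7, the highest rat for most members, was the lowest of its group.

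**Figure D2:**
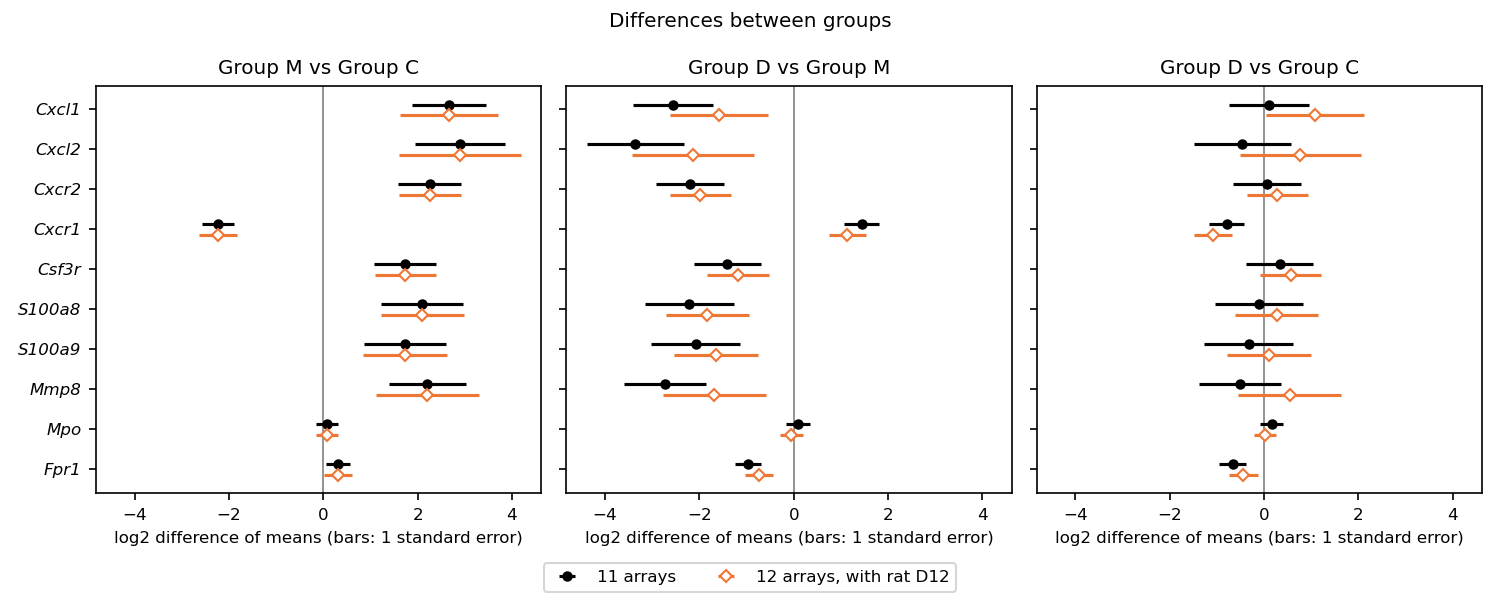
Differences of group means on the log2 scale for the 10 members in the 3 comparisons, with bars of 1 standard error. Black circles are the 11 arrays and open diamonds all 12 arrays: in Group D vs Group M the difference of Cxcl2 was -3.36 on 11 arrays and -2.13 on 12, while Mpo lay near 0 in all 3 comparisons.

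The members were then set beside all probes of the arrays. In limma, at a Benjamini-Hochberg adjusted p of 0.05 (all probes adjusted together) and 2-fold or more, 0 of the 8 probes named by the files passed in Group M vs Group C, where 0.168% of all probes did. In Group D vs Group M it was 0 of 8, against 0.125% of all probes, and in Group D vs Group C 0 of 8, against 0.00659%. Of the pair found by accession, Cxcr1 passed in Group M vs Group C and Cxcr2 in none. With the p left unadjusted (0.05 or less) and 2-fold or more, 5 of the 8 were higher in Group M than in Group C (2.47% of all probes), 4 of 8 were lower in Group D than in Group M (3.28%), and 0 differed between Group D and Group C (0.372% higher and 0.382% lower). Cxcr2 also met this threshold in the first 2 comparisons, in the same directions, and Cxcr1 met it in the opposite directions. By the criterion of the study's methods, an analysis of variance with a Tukey test and a 2-fold change, Cxcl1 alone of the 8 passed in Group M vs Group C (2.33% of all probes), Cxcl2 alone in Group D vs Group M (2.65%) and 0 in Group D vs Group C (0.366%). Of the pair found by accession, Cxcr2 (higher) and Cxcr1 (lower) also passed it in Group M vs Group C, and Cxcr1 (higher) in Group D vs Group M. Of the 10, Cxcr2 was higher without overlap in Group M vs Group C (4.08% of all probes) and Cxcr1 lower (5.17%). In Group D vs Group M, Cxcl1, Cxcl2, Cxcr2, Mmp8 and Fpr1 were lower without overlap (6.89%) and Cxcr1 higher (9.07%), and in Group D vs Group C Fpr1 was lower (3.78%). With D12 included, only Cxcr2 stayed apart in Group D vs Group M, and Fpr1 overlapped in Group D vs Group C. For Mmp8, D9 had -8.70 and M6 -8.67, and for Cxcr1 they had -7.89 and -7.94, none of them well above background. The shares of all probes are given as background, since the members were listed with such results known. The comparisons share Group C or Group M, so their values are not independent.

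Single rats decided much of this. M6 was the lowest rat of Group M for 7 of the 8 probes, M7 the highest of all rats for 5, C2 the highest of Group C for 6, and D12 lay above all of Group C for 6. Without M6, 5 of 8 probes passed in Group M vs Group C (Cxcl1, Cxcl2, S100a8, Csf3r and Mmp8), where 5.86% of all probes did. In Group D vs Group M without M6 it was also 5 (Cxcl1, Cxcl2, S100a8, Mmp8 and Fpr1), against 6.51%. Without M7 the differences between Group M and Group C stayed positive but fell to 1.85 for Cxcl1, 1.95 for Cxcl2, 1.51 for Cxcr2 and 1.09 for Csf3r, and without C2 those of Cxcl1 and Cxcl2 were 3.11 and 3.54. Between Group D and Group M the differences without M7 were -1.74 for Cxcl1, -2.41 for Cxcl2, -1.44 for Cxcr2 and -0.76 for Csf3r. Cxcr1 passed neither without C1, C3 or C4, without M5, M7 or M8, nor without D10 or D11, with differences from -2.26 to -2.09.

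**Figure D3:**
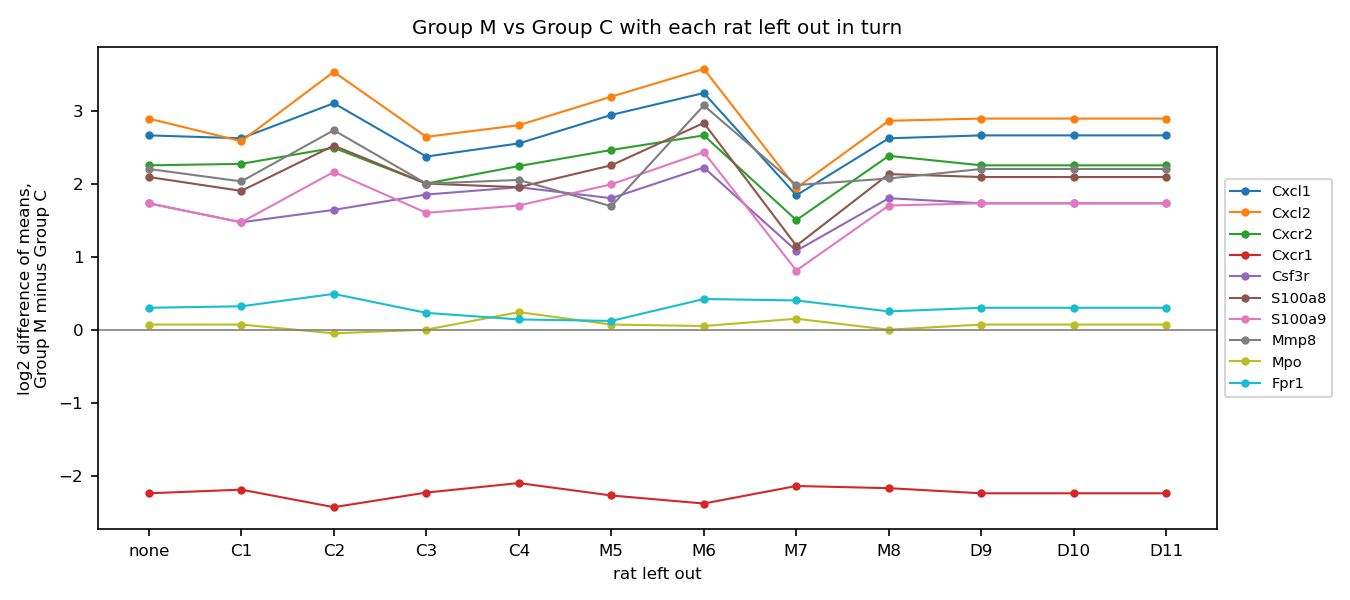
Log2 difference of Group M minus Group C for each member, with no rat left out and with each of the 11 rats left out in turn. The lines of Cxcl1, Cxcl2, Cxcr2, Csf3r, S100a8 and S100a9 are lowest without M7 and highest without M6, while that of Cxcr1 stays between -2.42 and -2.09.

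The genes with the signal most like that of Cxcl1 over the 12 arrays were Cxcl2 (Pearson r of 0.984), Bxdc2 (0.983), Gnl2 (0.979), Med13 (0.978) and Agfg1 (0.977), among 14017 probes with a gene name that were detected in every rat. Without M7 they were 0.972, 0.971, 0.963, 0.964 and 0.959. Most like S100a9 were S100a8 (0.987), Map4k4 (0.978), Gjb2 (0.975), Pdpn (0.968) and Homer3 (0.968). For S100a9 the values without M7 were 0.962, 0.956, 0.937, 0.917 and 0.904. These values describe arrays that share their groups and scaling. Among the members, Cxcl1 had an r of 0.91 with S100a8, 0.87 with Cxcr2, 0.86 with Mmp8, 0.49 with Fpr1, -0.35 with Mpo and -0.78 with Cxcr1.

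Another 78 genes of neutrophils and of their recruitment were listed, and 75 were measured. By limma, none passed both thresholds in any comparison. Before adjustment, at p of 0.05 or less, 18 were higher and 2 lower in Group M than in Group C, where 9.86% and 12.9% of all probes were. In Group D vs Group M, 2 were higher and 24 lower, against 11.8% and 9.85% of all probes, and in Group D vs Group C 4 were higher and 0 lower, against 3.15% and 2.83%. The median log2 difference of the 75 genes was 0.36, -0.50 and -0.08 in the 3 comparisons, beside -0.014, 0.022 and 0 over all probes.

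Among the other ELR chemokines, Cxcl3 was not above background on any array. Cxcl6 was above background in M7 alone, where it had -4.32, against -7.60 in C2, -8.03 in M6 and -8.32 in D12. Of the cytokines upstream of neutrophil recruitment, Il1b, which induces both chemokines, had means of -1.93 ± 0.51 (SD, n = 4) in Group C, -0.67 ± 1.32 (n = 4) in Group M and -1.89 ± 0.09 (n = 3) in Group D, with 1.18 in M7, -1.94 in M6 and -0.30 in D12. Its difference was 1.26 ± 0.55 (SE) for Group M vs Group C, then -1.22 ± 0.59 for Group D vs Group M, with adjusted p of 0.206 and 0.262 by limma. Tnf had 1.02 ± 0.56 and -1.64 ± 0.61 in the same comparisons, with adjusted p of 0.309 and 0.163. Csf3, which encodes G-CSF, the ligand of Csf3r, was well above background on all arrays, with differences of 0.36 ± 0.21 and -0.11 ± 0.23. Csf3 had -1.93 in D12, and the latter difference was -0.04 with D12 in the fit.

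The granule genes differed among themselves. Elane, an elastase of the primary granules, was not above background on any array. Bpi, another primary granule protein, was well above background on all arrays and lower in Group M than in Group C by 1.07 ± 0.37, with an adjusted p of 0.141 by limma, the opposite of S100a8. Of the later granules, Lcn2 had 0.70 ± 0.43, Camp 0.11 ± 0.08 and Ltf, well above background in 2 of 4 rats of both groups, -0.22 ± 0.44 in Group M vs Group C, with adjusted p from 0.367 to 0.817. Mmp9 was above background in D12 alone. The median difference was 0.14 for the 10 primary granule and granulopoiesis genes and 0.22 for the 14 later granule genes.

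Surface receptors and the oxidase had larger differences. The 20 genes of neutrophil surface receptors and adhesion had a median difference of 0.86 in Group M vs Group C, with 19 of 20 positive, and of -1.04 in Group D vs Group M, with 0 of 20 positive, while 0 passed the adjusted threshold. Trem1, a receptor that amplifies inflammatory signals on myeloid cells, had 2.25 ± 0.84 in Group M vs Group C and was at least 6.34-fold lower in Group D than in Group M, with an adjusted p of 0.0995 by limma. Its signal was -3.35 in M7, -7.12 in M6, -5.54 in C2 and -6.36 in D12. Il1r2, the decoy receptor for interleukin 1, had 1.92 ± 0.57 and -1.93 ± 0.61 with adjusted p of 0.116 and 0.129 by limma. It had -1.40 in D12, and with D12 in the fit the latter difference was -1.39. C5ar1, the receptor of the complement fragment C5a, had 0.69 ± 0.25 and -1.02 ± 0.27 with adjusted p of 0.147 and 0.0995 by limma. It had -2.39 in D12, and with D12 in the fit the latter difference was -0.87. The integrin chains differed from each other, since Itgb2, shared by all leukocytes, had 1.20 ± 0.58 while Itgam, the chain of neutrophils and macrophages, had -0.16 ± 0.26. Fpr2, a relative of Fpr1, had 1.02 ± 0.77. The 6 genes of the NADPH oxidase had a median difference of 1 in Group M vs Group C, with 5 of 6 positive, and of -1.19 in Group D vs Group M, with 1 of 6 positive, and 0 passed the adjusted threshold. Among them Ncf1 had 1.08 ± 0.50 and Cybb 0.39 ± 0.32 in Group M vs Group C.

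On the vessel side, Selp and Icam1, which hold rolling and adhering leukocytes to the endothelium, were lower in D9 to D11 than in Group M by 2.71 ± 0.71 and 1.54 ± 0.39, with adjusted p of 0.0988 and 0.0948 by limma. Selp had -0.60 in D12 against a mean of -4.21 ± 0.22 (SD, n = 3) in D9 to D11, and Icam1 had 1.09 against -1.24 ± 0.16 (n = 3). Sele was above background in M7 alone.

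**Figure D4:**
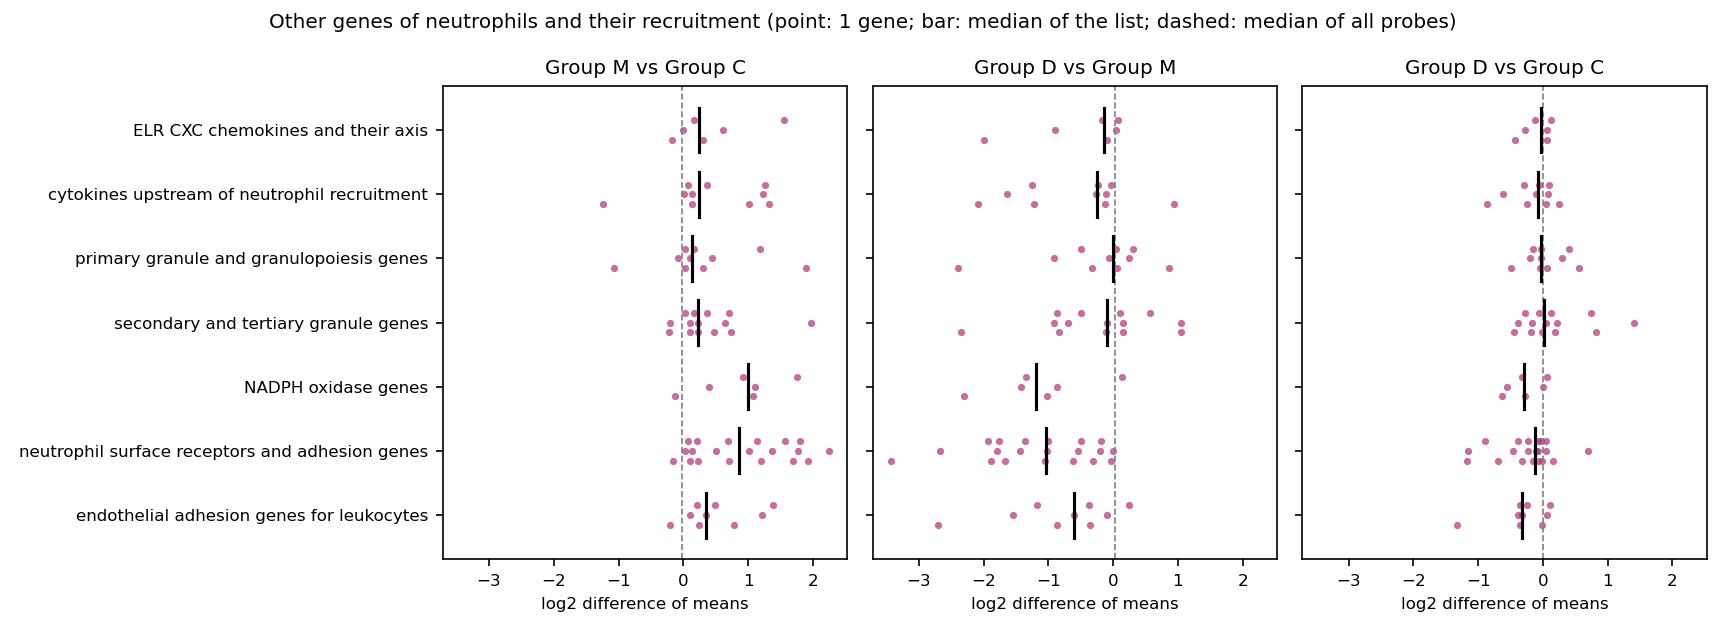
Log2 difference of each of the 75 other genes (points) by list and comparison, with the median of the list as a bar and the median of all probes as a dashed line. The surface receptor and adhesion list has a median of 0.86 for Group M vs Group C and -1.04 for Group D vs Group M, and the primary granule list 0.14 and 0.

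Markers of lymphoid cells moved with the same rats. The summed signal of 6 B cell genes, relative to the 75th percentile, was 6.13 in C2, 9.31 in M5, 5.20 in M7, 6.53 in M8 and 14.9 in D12, and it was 0.398 to 0.948 in the other 7 rats. For 7 T cell genes it was 3.89 to 13 in those 5 rats and 0.732 to 1.51 in the others. The 12 monocyte and macrophage genes summed to 62.7 to 84.6 in the same 5 rats and to 31.7 to 38.3 in the others. Lyz2, a lysozyme that neutrophils also make, made up 25.2% to 58.5% of that sum, and without it the sum was 29.1 to 35.1 in the same 5 rats and 22.4 to 26.9 in the others. Single macrophage genes did not all follow these rats, with Cx3cr1 low in C2, M7 and D12 and Csf1r low in M7. Cx3cr1 had -1.58 in C2, -1.90 in M7 and -1.57 in D12, below its mean of -1.16 in Group C. Csf1r had -1.65 in C2, -1.87 in M7 and -1.74 in D12, beside means of -1.71, -1.71 and -2.22 in Group C, Group M and D9 to D11. Adgre1 was above the mean of the group in each of these rats. It had -2.31, -2.49 and -2.20, beside means of -2.37, -2.65 and -2.83. The differences of Csf1r and Adgre1 in Group M vs Group C were -0.01 and -0.27. All 12 macrophage genes, all 7 T cell genes and 3 of the 6 B cell genes were detected in every rat, and none of these genes passed both thresholds in any comparison. In Group M vs Group C the median difference was 2.24 for the B cell, 0.92 for the T cell and 0.36 for the macrophage genes. Their part in the differences of the neutrophil genes was not tested.

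The order of the rats was not the same in both sets of genes. D12 had the highest B cell and T cell sums, while M7 had the highest signal of Cxcl1, Cxcl2, Cxcr2, Csf3r, S100a8 and S100a9. The mast cell sum was 1.65 to 2.34 in Group M, M6 included, 0.791 to 1.01 in Group C and 1.17 to 3.25 in D9 to D11. Eosinophil genes summed to 0.371 in C2, 0.469 to 0.771 in M5, M7 and M8 and 0.547 in D12, and to 0.0999 to 0.184 in the others. Of these 8 genes, the granule gene Prg2 was well above background on all 12 arrays and made up 48.4% to 82.2% of the sum. Epx and Prg3, also granule genes, and Il5ra were not above background on any array. The median difference of the list in Group M vs Group C was 0.56, with 6 of 8 positive, and Rnase2 had 3.22 ± 0.59, at least 6.69-fold. S100a8 and S100a9 are also made by squamous epithelium. Of 11 genes of that tissue 10 were measured, of which 2 (Krt13 and Dsg3) were not above background on any array, and their median difference in Group M vs Group C was 0.03, with 7 of 10 positive. Their sum was 3.83 to 4.21 in Group M and 3.89 to 4.54 in Group C, but Tp63 made up 89.8% to 97.1% of it. Without Tp63 it was 0.402 in M7 and 0.116 to 0.185 in the other 11 rats. Sprr1a, a protein of the cornified envelope (Sprr1al in the files), had -2.50 in M7, -5.48 in C2, -5.60 in D12 and -7.95 in M6, and its difference in Group M vs Group C was 2.85 ± 1.08, with an adjusted p of 0.161 by limma. In M7, Krt14 had -4.66 and Krt15 -3.55, above their means of -5.62 and -5.13 in Group C. Krt4, Krt13, Krtdap and Sbsn also lay above theirs in M7. Krt5, Tp63 and Dsg3 had -6.07, 1.82 and -8.50 in M7, below their means of -6.01, 2.04 and -8.09 in Group C. The part of this tissue in the signals of S100a8 and S100a9 was not tested.

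**Figure D5:**
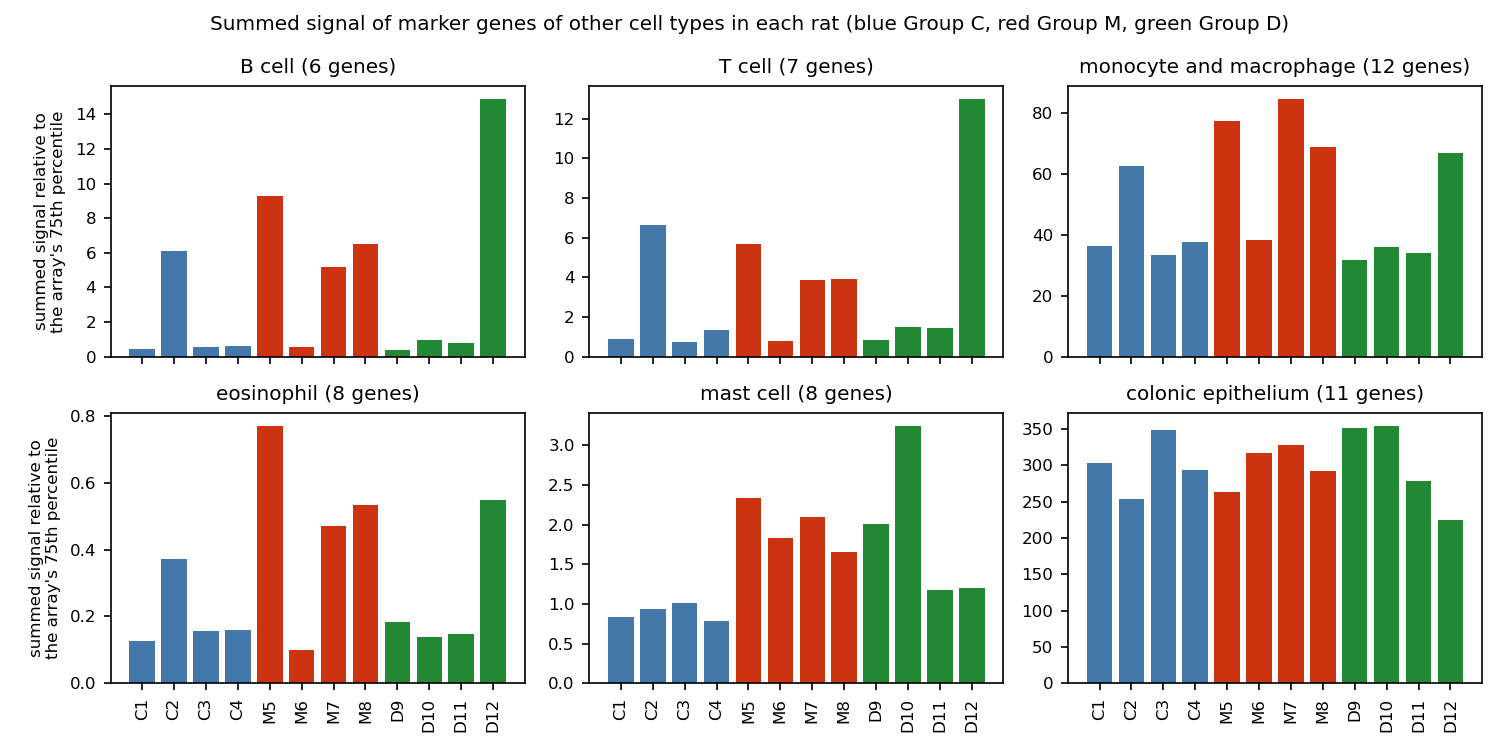
Summed signal of marker genes of 6 other cell types in each rat, on a linear scale relative to the 75th percentile of the array, with bars from 0. B cell and T cell genes are high in C2, M5, M7, M8 and D12, as is the sum of the macrophage genes, of which Lyz2 alone made up 25.2% to 58.5%. The sum of colonic epithelium genes lies between 225 and 355 in all rats. It is lowest in D12 (225), C2 (254) and M5 (263), with 292 in M8 and 328 in M7.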

How the data were processed

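Colonic RNA of 12 rats was labelled with Cy3 and hybridized to 1-colour Agilent arrays of 60-base probes, 1 array per rat. Per the file headers, the deposited intensities were read by Agilent Feature Extraction 10.5.1.1, with background subtraction and a correction of spatial trends and positions in rn4, and they were not normalized between arrays. The authors also deposited processed values of all 12 arrays, which are on the log2 scale and quantile normalized, and served as an alternative. Groups follow the labels.

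Control spots and outlier spots (277 to 521 per array) were left out, signals were divided by the 75th percentile of the array, and replicate spots of each probe were averaged on the log2 scale. A value was missing on some array for 19 of 30367 probes. Comparisons used limma 3.58.1 (R 4.3.3), with lmFit and eBayes on 1 model of the 3 groups over 11 arrays. The p-values of all probes were adjusted together (Benjamini-Hochberg), and the thresholds were an adjusted p of 0.05 and a 2-fold change. Where every array of the lower group was near background, the fold is a lower bound, computed against the lowest signal above background. The procedure was tested on simulated data. Other genes have 1 probe each, that with the highest mean, and are named where a list of key genes holds them, of which 2 are not reported here. The members, lists and tests were chosen with earlier results of these data known. Promoters are those of RefSeq (GRCr8), matched by symbol, and S100a8 and Cxcl3 had no entry. Cxcl5, Ackr1 and Il17rc were not measured by a named probe. Files were read with version 1.17.8 of the data.table package and plotted in matplotlib 3.10.9 (Python 3.11.15). Alternatives were all 12 arrays, normexp (offset 50), quantile normalization, a shift to the median, the authors' values, outlier spots kept, a filter on dim probes, array quality weights, the replicate number as a block, models of the compared pair alone, other thresholds, the methods' criterion and each rat left out. The fit of all 12 arrays with the block was added after the data were seen.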

Additional observations from a re-analysis of the deposited data

Results flagged for a closer look

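Within groups of 4 rats, the highest or lowest rat was set against the others by the gap to its neighbour divided by the range of the group. For 6 of 30 groups (10 members in 3 groups) this ratio was above the critical value of Dixon's test for 4 samples, which chance exceeds in about 1 in 20 groups. Over all probes the ratio was above it for 7.26% in Group C, 7.18% in Group M and 7.91% in Group D, most often with C2, M6 and D12 apart (2.57%, 3.62% and 5.70% of all probes). In Group D the rat apart was D12 each time. The ratio was 0.921 for Cxcl1 (-0.54 in D12, -4.65 to -4.33 in the others), 0.921 for Cxcl2 (-0.85 against -5.93 to -5.53), 0.943 for S100a8 (-3.36 against -4.92 to -4.83) and 0.948 for Mmp8 (-4.57 against -8.92 to -8.70). In Group C it was C2, with a ratio of 0.837 for S100a8 (-3.49 against -5.34 to -5.04) and 0.924 for Mmp8 (-6.71 against -8.89 to -8.73). Mmp8 was not well above background in any rat of Group C or in D9 to D11, so its ratios rest on signals near background. The members vary together between rats, so these 6 values are not independent of each other.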

How the results depend on the processing

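Of the differences of the 10 members, none that passed the threshold changed sign under an alternative. Of 216 recomputed values per comparison, 200 in Group M vs Group C, 212 in Group D vs Group M and 208 in Group D vs Group C kept their side of the threshold and moved by less than the spread between rats. Differences that did not pass it changed sign under some alternatives, those of Mpo in all comparisons and, in Group D vs Group C, those of Cxcl1, Cxcl2, Cxcr2, S100a8, S100a9 and Mmp8 (Cxcl2 from -0.77 to 0.77, Mmp8 from -0.73 to 0.54, both highest with D12). The 8 probes gave 0 calls in Group M vs Group C, but 6 with array quality weights, 5 at an unadjusted p with a 2-fold change and 1 by the methods' criterion. In Group D vs Group M these counts were 6, 4 and 1, and in Group D vs Group C they were 0. With each rat left out they ranged from 0 to 5 in the first 2 comparisons, and 5 was reached without M6 alone. Of the 75 other genes, under the same settings, 23, 16 and 5 passed for Group M vs Group C. For Group D vs Group M 25, 22 and 8 passed, and for Group D vs Group C 0, 1 and 1 (Mmp25). With each rat left out they ranged from 0 to 21 and from 0 to 22, the highest without M6. Array quality weights and the loss of M6 also raised the share of all probes called, to 6.79% and 5.86% in Group M vs Group C, while in Group D vs Group M it was 6.78% and 6.51%. The cause was not tested.

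The call of Cxcr1 in Group M vs Group C was lost under 13 alternatives, among them all 12 arrays (-2.23) and the authors' table (-2.17). Normexp compressed dim probes, and the difference of Group M vs Group C was then 0.47 for Cxcr2, 0.41 for Csf3r, 0.53 for Mmp8 and -0.38 for Cxcr1. Rats with the same replicate number did not deviate together (r from -0.72 to 0.18 over 10 pairs). The median r was -0.13, against 0.03 for pairs with different numbers. These values gave no sign of pairing by number, but so few pairs cannot exclude it. With the replicate number as a block, 0 of the 8 probes and 0 of the 75 genes passed in each comparison, and the difference of Cxcr1 was -2.23. Signals near background limit Cxcr1, Cxcr2, Csf3r and Mmp8, and Mpo in D12.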
